A study of Mus musculus with 6 samples.

Results

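Long noncoding RNAs of muscle and of the nucleus were examined in C2C12 myotubes exposed to RANKL. Members were taken by name from a list of 8 genes: the imprinted RNAs H19, Meg3, Rian and Mirg, the nuclear RNAs Malat1 and Neat1, and the snoRNA host RNAs Gas5 and Snhg1. Of these 8, 5 are among the 12625 genes analysed: H19, Malat1, Neat1, Gas5 and Snhg1. Meg3, Rian and Mirg are not analysed here, so the imprinted class rests on H19 alone. The members were taken by name and not by a threshold on measured values, but earlier results of these data were known when they were chosen.

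C2C12 is a mouse myoblast line whose cells fuse into multinucleated myotubes. After 5 days of differentiation, 3 libraries came from myotubes given 100 ng per ml of recombinant mouse RANKL, the ligand of the receptor RANK, for 72 h, and 3 from myotubes given vehicle. Both groups are the same line without any genetic change named in the labels, and the model holds no bone, immune or nerve cells beside the myotubes. The labels do not state whether each replicate was its own culture, so p-values measure only the spread between these libraries, which may be technical.

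Long noncoding RNAs act as RNA rather than as templates for protein. H19 is transcribed from the maternal chromosome, beside the growth factor gene Igf2 that is transcribed from the paternal one, and it is abundant in embryonic muscle and in differentiating myoblasts. Meg3, Rian and Mirg are maternal transcripts of the Dlk1-Dio3 imprinted domain. Malat1 gathers in nuclear speckles, which hold splicing factors, and Neat1 is the RNA scaffold on which paraspeckles form. Gas5 and Snhg1 are spliced RNAs with little coding potential whose introns release box C/D snoRNAs, the guides of ribosomal RNA methylation. Such host RNAs begin with a stretch of pyrimidines, like ribosomal protein mRNAs, and are cleared by nonsense-mediated decay when ribosomes read them.

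A promoter of each snoRNA host is shown because the start site is a feature of this class. The table gives 1 promoter for Snhg1 and 2 for Gas5, and the Gas5 promoter printed is the one with C and T over its start. The other, with its start at position 161034601, has a run of 0 bases there and no TGACGTCA. Each runs from 250 bases before the start to 50 bases from it, in RefSeq's sequence for GRCm38.p6, plus strand, 5′ to 3′. Capitals mark the unbroken run of C and T over the annotated first base and, in Gas5, the letters TGACGTCA, the palindrome known as the cyclic AMP response element.
Gas5, chr1:161034916-161035215: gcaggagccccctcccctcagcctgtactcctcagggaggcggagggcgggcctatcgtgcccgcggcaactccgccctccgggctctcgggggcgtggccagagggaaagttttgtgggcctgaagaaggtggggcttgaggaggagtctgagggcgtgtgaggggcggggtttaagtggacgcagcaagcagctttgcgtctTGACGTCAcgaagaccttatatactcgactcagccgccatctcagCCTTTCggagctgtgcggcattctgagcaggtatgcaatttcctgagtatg
Snhg1, chr19:8723237-8723536: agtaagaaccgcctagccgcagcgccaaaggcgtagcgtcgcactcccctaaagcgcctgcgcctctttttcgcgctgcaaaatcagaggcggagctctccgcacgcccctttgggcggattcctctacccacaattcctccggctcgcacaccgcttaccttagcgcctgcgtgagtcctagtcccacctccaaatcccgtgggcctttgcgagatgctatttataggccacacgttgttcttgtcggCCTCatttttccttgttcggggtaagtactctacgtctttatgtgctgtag
In the Gas5 promoter shown, the run of C and T over the start was 6 bases long, a length reached by 7.25% of 32851 promoters in the table. In Snhg1 it was 4 bases long, reached by 13.97%. The letters TGACGTCA, searched on both strands, stood in 1.79% of promoters. Among the listed members they also stood in a promoter of Meg3, so they are not particular to Gas5.

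The intronic products of Gas5 are shown because the gene counts concern the host and not these RNAs. GENCODE M21 places 10 snoRNA entries inside Gas5 on mm10 and 8 inside Snhg1, with lengths of 60 to 84 and 65 to 126 bases. Sequences are 5′ to 3′ on the plus strand, and capitals mark the box C letters TGATGA near the start and the box D letters CTGA near the end.
Snord78, chr1:161036984-161037049: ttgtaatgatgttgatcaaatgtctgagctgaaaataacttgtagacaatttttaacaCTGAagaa
Snord80, chr1:161037601-161037681: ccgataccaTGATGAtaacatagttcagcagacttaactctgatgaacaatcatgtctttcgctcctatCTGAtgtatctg
Snord47, chr1:161038082-161038158: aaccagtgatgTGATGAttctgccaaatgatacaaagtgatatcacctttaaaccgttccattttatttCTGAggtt
Snord80 and Snord47 carry both sets of letters and Snord78 only those of box D. All 10 entries of Gas5 hold the box D letters and 8 the exact box C letters. Snord80 is entered again at 161037604 to 161037680, inside the entry shown, so these are counts of entries and not of distinct RNAs. Some annotated transcripts of Gas5 keep these introns, so a host count can include reads from unspliced RNA.

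H19 carries the hairpin of miR-675 within its exons. Its mature products, from RefSeq on GRCm38.p6, are shown with the seed (bases 2 to 8) in capitals, because a change in H19 would bear on their precursor. The minus strand is given, 5′ to 3′.
mmu-miR-675-5p, chr7:142577112-142577133: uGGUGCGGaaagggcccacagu
mmu-miR-675-3p, chr7:142577078-142577099: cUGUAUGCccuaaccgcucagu
The 2 seeds differ, and neither product was measured in these libraries of longer RNA.

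Total counts lay between 32732604 and 39677999 per library. Myotube identity was well marked, with 10 of 10 myotube genes analysed. Their summed level was 28658 to 30977 CPM (the usual counts-per-million scale, on the TMM-scaled library total) under vehicle and 26970 to 27573 under RANKL. Acta1, Myh3 and Myh8 fell. The others did not pass, with log2 fold changes from -0.37 for Ttn to 0.05 for Tnnt3. Ttn, which is part of the sum, ranged from 3082 to 5425 CPM among the vehicle libraries. The 5 markers of undifferentiated or cycling myoblasts summed to 91.8 to 98.9 CPM under vehicle and 122 to 144 under RANKL. The cell cycle genes Mki67, Top2a and Ccna2 were higher. The myoblast markers did not pass, with log2 fold changes of 0.14 for Myf5 (adjusted p = 0.229 by edgeR) and -0.31 for Pax7 (0.444). Of 7 macrophage markers, 2 were analysed (Cd68 and Cd14, together 3.85 to 4.50 CPM under vehicle and 4.64 to 5.70 under RANKL), and neither passed the test. Adipocyte, osteoblast and endothelial lists had 2 of 5 members analysed each, none of which passed, at summed levels of at most 11.0, 34.2 and 2.47 CPM in any library.

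**Figure D1:**
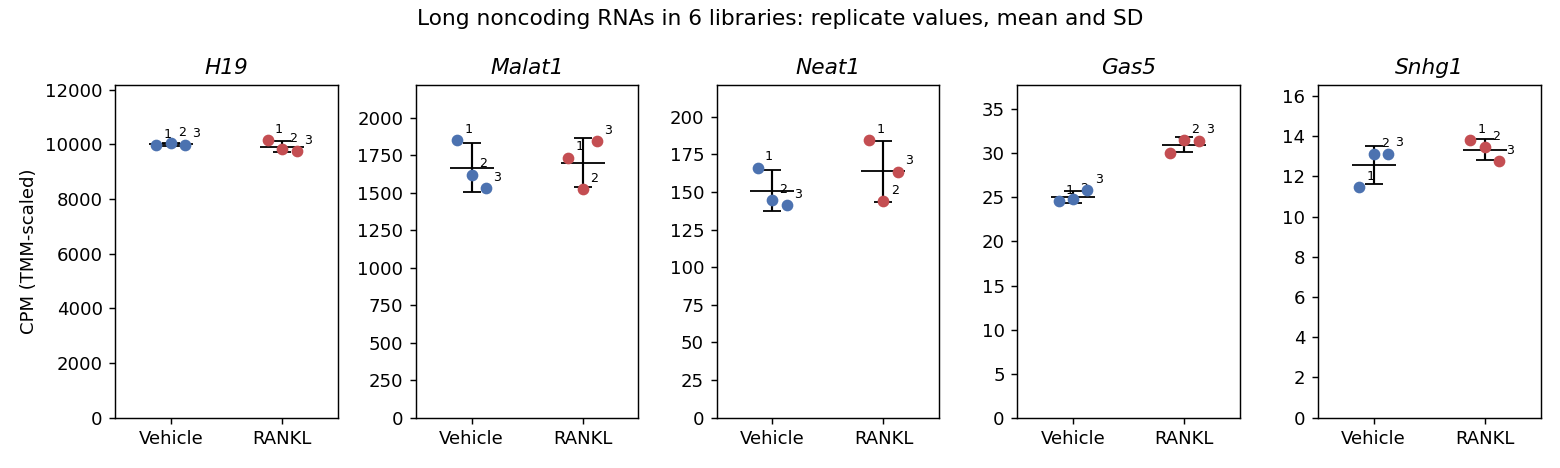
CPM of the 5 long noncoding RNAs in each library (points, numbered by replicate), with mean and SD (bars, n = 3 per group) for vehicle (blue) and RANKL (red). Each panel has its own vertical axis from 0; only in Gas5 do all RANKL libraries, at 30.1 to 31.5 CPM, lie above all vehicle libraries, at 24.6 to 25.8.

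Gas5 rose modestly under RANKL, and the other 4 RNAs did not pass the test. By edgeR's quasi-likelihood test over all genes, 1 of 5 members was called higher and 0 lower at an adjusted p under 0.05. Among all 12625 genes 12.9% were called, 5.35% as higher and 7.50% as lower. A count of 1 among 5 is too small to set against that background.

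Gas5, named for its accumulation in growth-arrested cells, had 955, 824 and 954 counts in the vehicle libraries and 1133, 1071 and 1042 under RANKL. These are 24.6, 24.8 and 25.8 CPM under vehicle and 30.1, 31.5 and 31.5 CPM under RANKL. Every RANKL library lay above every vehicle library; 31.5% of all genes tested had groups apart in this way. The group means were 25.1 ± 0.680 and 31.0 ± 0.812 CPM (SD, n = 3 each), a 1.24-fold rise with a 95% interval of 1.15 to 1.33. On the log2 scale this is 0.31 ± 0.05 (SE), with an adjusted p of 0.000778 by edgeR's quasi-likelihood test. It passed the threshold in 17 of 17 alternative analyses, with log2 fold changes of 0.26 to 0.34 and adjusted p from 8.25e-05 to 0.00742. In bulk RNA, a changed number of cells of one kind and a changed amount of RNA per cell cannot be told apart. The cycling markers Mki67, Top2a and Ccna2 moved in the same direction as Gas5, and their part in its rise was not tested.

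Gas5 lies on mm10 chromosome 1 from 161034422 to 161038539 on the plus strand. GENCODE M21 classes it as a processed transcript with 25 annotated transcripts. Zbtb37, a zinc finger gene on the opposite strand, overlaps its span but shares none of its exon bases. Zbtb37 had a log2 fold change of -0.02 ± 0.07 and Rc3h1, the gene of the RNA-binding protein Roquin on one side of Gas5, 0.01 ± 0.05. Neither passed the test (adjusted p = 0.905 and 0.955 by edgeR), and both were chosen by position after values were seen.

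Snhg1, the other snoRNA host, had 446, 436 and 485 counts under vehicle and 520, 458 and 423 under RANKL. In CPM these were 11.5, 13.1 and 13.1 under vehicle and 13.8, 13.5 and 12.8 under RANKL. Vehicle replicate 1 was the lowest library and the other 5 lay close together, so the groups overlapped. Its log2 fold change was 0.09 ± 0.07 (adjusted p = 0.472 by edgeR), a fold of 1.06 with a 95% interval of 0.955 to 1.18. The interval holds no change and also part of the range given for Gas5.

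Whether the 2 hosts responded differently was examined by the ratio of their counts within each library. Gas5 had 2.14, 1.89 and 1.97 counts per count of Snhg1 under vehicle and 2.18, 2.34 and 2.46 under RANKL. The means were 2.00 ± 0.129 and 2.33 ± 0.143 (SD, n = 3 each), and the groups did not overlap, although vehicle replicate 1 and RANKL replicate 1 were close. An exact two-sided permutation test gave p = 0.1, the smallest that it allows for 3 libraries against 3. That test could not have fallen below 0.05, so it cannot decide whether the hosts differed, and the ratios are given as a description.

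Snhg1 lies on chromosome 19 from 8723475 to 8726443, plus strand, and its start faces that of Slc3a2. Slc3a2 encodes the heavy chain of amino acid transporters and is transcribed from the minus strand, with 105 bases between its start and that of Snhg1 on mm10, so the 2 genes run in opposite directions. Slc3a2 had 150 ± 1.63 CPM under vehicle and 131 ± 2.94 under RANKL (SD, n = 3 each). It fell by 0.20 ± 0.03 on the log2 scale (adjusted p = 0.00106 by edgeR), with no overlap between the groups. Wdr74, the ribosome assembly gene on the other side, had a log2 fold change of 0.04 ± 0.07 (adjusted p = 0.809). Both neighbours were taken by position after values were seen.

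Other hosts of snoRNAs, a list of 28 genes without the 2 members, had 20 analysed. Of these, 2 rose and 0 fell by edgeR, with 10 higher and 0 lower at an unadjusted p under 0.05. Over all genes tested, 12.6% were higher and 14.5% lower at that unadjusted threshold. Snhg5 rose from 8.67, 9.11 and 9.78 CPM under vehicle to 11.9, 11.0 and 11.0 in the treated libraries. The log2 fold change was 0.30 ± 0.08 (adjusted p = 0.0182 by edgeR). Rps3, a ribosomal protein gene with snoRNAs in its introns, rose by log2 0.14 ± 0.04, from 314 ± 15.5 CPM to 346 ± 3.98 (adjusted p = 0.0200). The median log2 value of these hosts was 0.10, against 0.00 over all genes tested, and 15 of the 20 values were above 0, as were 51.7% of those of all genes.

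The count of 2 hosts rested on few libraries. Without vehicle replicate 1 or vehicle replicate 2, 0 hosts were called, without RANKL replicate 2 there was 1, and without vehicle replicate 3 or RANKL replicate 3 there were 3 and 4. Scaling to total counts, which shifts the median of all genes from 0.00 to 0.04, gave 7 higher and 0 lower. The trend on gene length moved the list's median from 0.10 to 0.06. Snhg12, Snhg17, Snhg18 and Snhg20 (chosen after values were seen) did not pass, with log2 fold changes of -0.03, 0.03, -0.03 and -0.03. Snhg3, Snhg4 and Snhg6, also chosen afterwards, had 0.21, 0.26 and 0.26 and did not pass either, at 4.09 to 4.16 CPM under vehicle.

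Because nonsense-mediated decay clears such host RNAs, its 17 factors were tabulated, and all were analysed. By edgeR 0 were higher and 1 was lower. At an unadjusted p under 0.05, 2 were higher and 2 lower (11.8% each), against 12.6% and 14.5% of all genes. The alternatives limma-trend, limma-voom and DESeq2 gave the same 0 and 1. The one that fell was Smg6, the endonuclease of the pathway, from 123 ± 1.35 to 110 ± 3.54 CPM (SD, n = 3 each). The difference was -0.16 ± 0.03 on the log2 scale (adjusted p = 0.00536), and it passed in all 17 alternatives. The median of the list was -0.00.

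**Figure D2:**
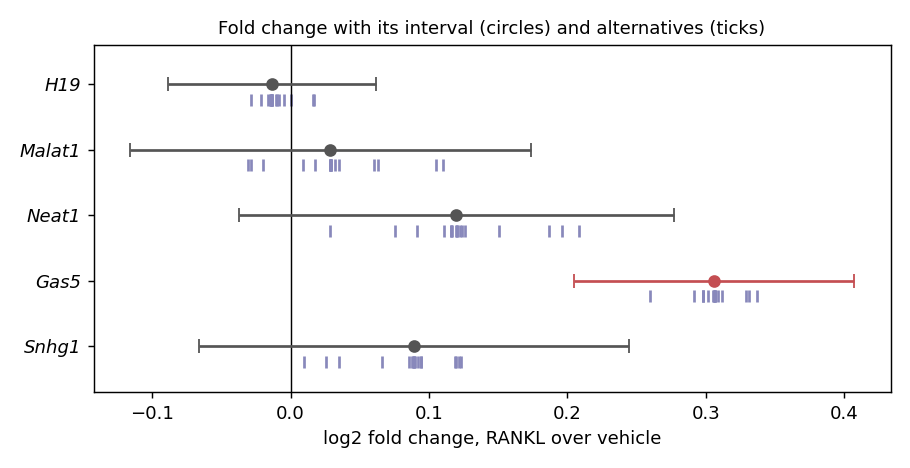
Log2 fold change of each RNA, RANKL over vehicle (circles), with its 95% interval from edgeR's quasi-likelihood fit (bars); ticks under each circle are the 17 alternative analyses. The interval of Gas5 (red, adjusted p under 0.05) runs from 0.20 to 0.41 and those of the other 4 include 0.

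H19 was held at the same high level in both groups. Its counts were 387170, 334507 and 368657 under vehicle and 382219, 334427 and 322906 under RANKL, which is 0.976% to 1.02% of each library. In CPM it stood at 9961, 10054 and 9983 under vehicle and at 10140, 9827 and 9748 under RANKL. The vehicle libraries differed among themselves by a coefficient of variation of 0.485% and the RANKL libraries, which lay on both sides of them, by 2.09%. The fold was 0.991 with a 95% interval of 0.940 to 1.04, and the log2 fold change -0.01 ± 0.04 (adjusted p = 0.849 by edgeR). The sign turned under total count scaling, with the GC trend removed and without RANKL replicate 3, and 0 of 17 alternatives called it. Of the 5 members, H19 had the narrowest interval.

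H19 lies on chromosome 7 from 142575529 to 142578143, minus strand, and GENCODE M21 gives it 7 transcripts with up to 5 exons. Annotated small RNAs on the opposite strand overlap 71 and 70 of its exon bases. Only the fibronectin gene Fn1 had a higher CPM under vehicle. Per kilobase of the length used for the deposited log2 table (2288 bases), H19 also ranked second under vehicle. H19 made up 68.7% to 72.0% of the summed CPM of the members and the analysed genes matched by symbol to a RefSeq lncRNA. The 5 members together made up 82.9% to 84.3%. LncRNAs without such a match are left out of these shares.

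Igf2, the insulin-like growth factor gene 72622 bases from H19, had 103, 95.0 and 95.0 CPM under vehicle and 85.0, 86.1 and 97.4 under RANKL. RANKL replicate 3 lay among the vehicle values and the other RANKL libraries below them. The log2 fold change was -0.13 ± 0.05 and did not pass (adjusted p = 0.107 by edgeR). Without RANKL replicate 3 it was -0.19 with an adjusted p of 0.00884, while leaving out another library gave 0.128 to 0.368. H19 had 96.4 to 106 counts per count of Igf2 under vehicle and 100.1 to 119 under RANKL, ranges that overlapped. Mrpl23, a mitochondrial ribosomal protein gene on the other side of H19, had a log2 fold change of 0.09 ± 0.09 (adjusted p = 0.596).

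Of 38 other imprinted genes 24 were analysed. By edgeR 0 were higher and 0 lower, with 0 higher and 5 lower (20.8%) at an unadjusted p under 0.05, against 14.5% lower among all genes. None was called by limma-trend, limma-voom or DESeq2. Their median log2 fold change was -0.10, against 0.00 for all genes tested, and 18 of the 24 values were below 0, as were 48.3% of those of all genes. The median of these imprinted genes was -0.06 with the length trend removed or without RANKL replicate 2, and -0.11 without vehicle replicate 3. Igf2r, the receptor that removes IGF2, had the smallest p, with a mean of 307 ± 13.9 CPM in vehicle libraries, 286 ± 9.78 in treated ones and a log2 difference of -0.10 ± 0.04 (adjusted p = 0.0985). It was called without vehicle replicate 3 (0.0392) and without RANKL replicate 1 (0.0386). Leaving out RANKL replicate 1, RANKL replicate 3 or vehicle replicate 3 gave 3, 2 and 1 imprinted genes lower, and leaving out any other library gave 0.

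The Dlk1-Dio3 domain, home of Meg3, Rian and Mirg, spans 828275 bases of chromosome 12 from 109452823 to 110281097. Meg3 is annotated there from 109541001 to 109571726, Rian from 109603940 to 109661716 and Mirg from 109729764 to 109749460, all on the plus strand, and the RefSeq table places 2, 3 and 14 miRNA genes within them. Dlk1, Rtl1 and Dio3, the coding genes of the domain, are not analysed here either. The coding genes nearest to the domain that were analysed, Wdr25 and Ppp2r5c, had log2 fold changes of 0.04 ± 0.09 and 0.00 ± 0.03 (adjusted p = 0.848 and 0.962).

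For Malat1 and Neat1 the group means differed by no more than the spread between replicates. Malat1 had 71829, 53897 and 56502 counts under vehicle and 65330, 51808 and 61066 under RANKL. Its CPM were 1848, 1620 and 1530 under vehicle and 1733, 1522 and 1844 under RANKL. Vehicle replicate 1 and RANKL replicate 3 were highest, RANKL replicate 2 and vehicle replicate 3 lowest, and the groups overlapped throughout. The log2 fold change was 0.03 ± 0.07 (adjusted p = 0.833 by edgeR), a fold of 1.02 with a 95% interval of 0.923 to 1.13. Its sign turned with the GC trend removed and without vehicle replicate 3 or RANKL replicate 3.

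Neat1 had 6462, 4817 and 5224 counts under vehicle and 6947, 4891 and 5418 under RANKL. In CPM this was 166, 145 and 141 under vehicle and 184, 144 and 164 under RANKL. RANKL replicate 1 was the highest library, and RANKL replicate 2 lay within the vehicle range. The log2 fold change was 0.12 ± 0.07 (adjusted p = 0.322 by edgeR), a fold of 1.09 with a 95% interval of 0.974 to 1.21. It ran from 0.03 without RANKL replicate 1 to 0.21 without RANKL replicate 2, and 0 of 17 alternatives called it. Neat1 has a short and a long isoform, of which only the long one builds paraspeckles, and a count per gene does not separate them.

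**Figure D3:**
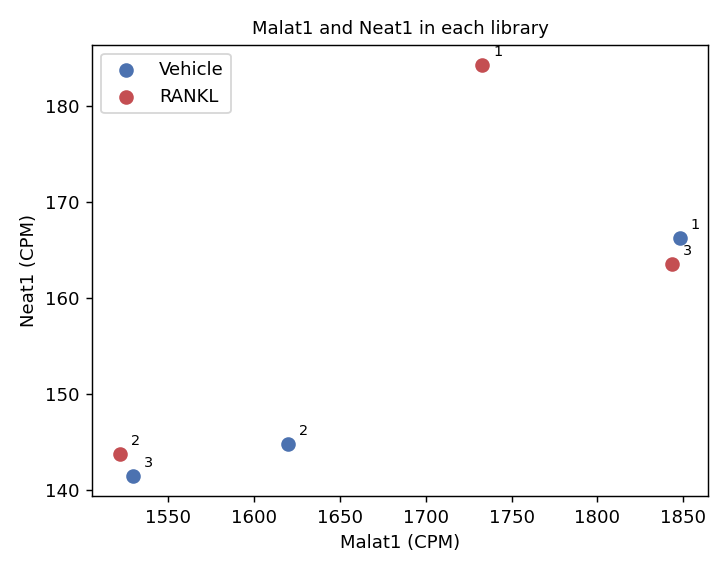
CPM of Malat1 (horizontal) and Neat1 (vertical) in each of the 6 libraries, numbered by replicate, for vehicle (blue) and RANKL (red); axes do not start at 0. Both groups have a library at the lower left, near 1530 and 141 CPM, and libraries at the upper right.

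The order of libraries was similar for the 2 nuclear RNAs. In each group the library with the least Malat1 also had the least Neat1, namely vehicle replicate 3 and RANKL replicate 2. Neat1 counts were 9.00%, 8.94% and 9.25% of Malat1 counts under vehicle and 10.6%, 9.44% and 8.87% under RANKL, so the ratio overlapped between the groups. The share of the ribosomal RNA precursor Rn45s, 0.558% to 0.898% of counts, was highest in vehicle replicate 1 and RANKL replicate 1, which also had the most Neat1 of their groups. Its part in these differences was not tested.

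Malat1 and Neat1 are neighbours on the minus strand of chromosome 19, at 5795690 to 5802672 and 5824708 to 5845478, with 22035 bases between them. An annotated transcript on the opposite strand overlaps 453 bases of Malat1. Beside Neat1, 4223 bases away, Frmd8, which encodes a cofactor of the inactive rhomboid proteases, averaged 32.9 ± 1.69 CPM in vehicle libraries and 36.5 ± 1.24 in treated ones, a log2 difference of 0.15 ± 0.05 (adjusted p = 0.0603).

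Proteins of the bodies that these RNAs occupy were examined from lists. Of 30 nuclear speckle genes, all analysed, 6 rose and 0 fell by edgeR, with 10 higher and 1 lower at an unadjusted p under 0.05, where all genes had 12.6% and 14.5%. Luc7l3, a splicing factor linked to the U1 particle, rose by log2 0.21 ± 0.04, from 60.4 ± 3.16 CPM to 70.1 ± 2.82 (adjusted p = 0.00572). Srsf3, an SR splicing factor, rose by log2 0.15 ± 0.03, from 84.9 ± 1.64 CPM to 94.1 ± 1.34 (adjusted p = 0.00844). The SR factors Srsf10 and Srsf7 rose by log2 0.14 and 0.15, with Srsf1 and the kinase Clk1 (chosen after values were seen) at 0.13 and 0.12. The list's median was 0.04 against 0.00 over all genes.

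Most of these speckle calls depended on the analysis. With the trend on GC content removed 1 gene was called, Luc7l3, and DESeq2 called 4. Without vehicle replicate 1 or 2 there were 2, without vehicle replicate 3, RANKL replicate 2 or RANKL replicate 3 there were 3. Without RANKL replicate 1 there were 8, with the length trend removed 7 and with total count scaling 9. Luc7l3 passed in all 17 alternatives.

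Of 24 paraspeckle protein genes, all analysed, 2 rose and 1 fell by edgeR, where 12.9% of all genes were called. At an unadjusted p under 0.05, 4 were higher and 4 lower (16.7% each), against 12.6% and 14.5% of all genes. The list as a whole thus stood close to the shares over all genes. Tardbp, which encodes the RNA-binding protein TDP-43, rose from 115, 120 and 115 CPM under vehicle to 132, 132 and 135 under RANKL. Its log2 fold change was 0.18 ± 0.03 (adjusted p = 0.00197 by edgeR), called in all 17 alternatives. Matr3, a nuclear matrix protein, rose by 0.12 ± 0.03 (adjusted p = 0.0187) and Smarca4, the remodelling ATPase BRG1, fell by 0.14 ± 0.03 (adjusted p = 0.0167). Matr3 and Smarca4 were not called with the GC trend removed (0.183 and 0.0543), without vehicle replicate 1 or without RANKL replicate 2. Nono, Sfpq and Pspc1, the core proteins of paraspeckles (chosen after values were seen), did not pass, and their log2 differences were -0.00, 0.03 and -0.08 in that order.

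**Figure D4:**
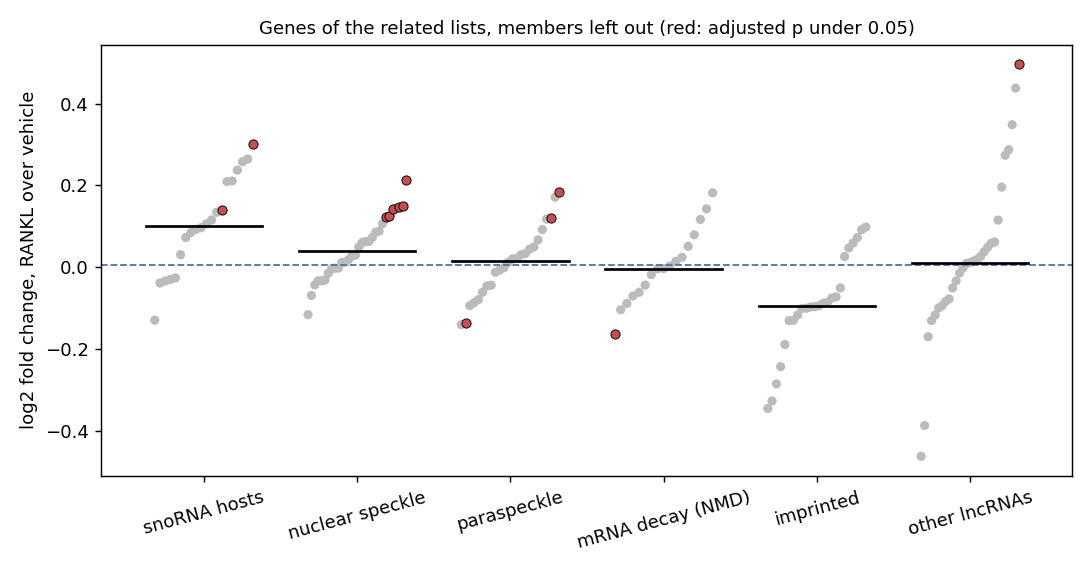
Log2 fold change (vertical) of every analysed gene in 6 lists related to the members, the members themselves left out, each list sorted from low to high. Red points passed edgeR's test, black bars are list medians and the dashed line is the median of all genes; snoRNA hosts have a median of 0.10 and imprinted genes of -0.10.

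Setting imprinted against nuclear and host RNAs, H19 was compared with the mean of the other 4 on the log2 CPM scale within each library. H19 exceeded that mean by 6.69, 6.75 and 6.75 under vehicle and by 6.56, 6.65 and 6.54 under RANKL. The vehicle values all lay above the RANKL values, by a mean of 6.73 against 6.58. Against Malat1 and Neat1 alone the ranges overlapped, at 4.17 to 4.42 under vehicle and 4.15 to 4.39 under RANKL. Against Gas5 and Snhg1 they did not, at 9.08 to 9.21 and 8.90 to 8.96. As the members were chosen by name and 1 of them rose, no test was made of these means.

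Levels between the RNAs were compared per kilobase of the gene length that the deposited log2 table used. Under vehicle H19 stood at 4370 ± 21.2 CPM per kilobase, Malat1 at 239 ± 23.5, Snhg1 at 26.5 ± 2.00, Gas5 at 9.83 ± 0.267 and Neat1 at 7.26 ± 0.648 (SD, n = 3). The order was the same under RANKL, with 4329 ± 90.6, 243 ± 23.4, 28.1 ± 1.10, 12.2 ± 0.319 and 7.89 ± 0.977. Neighbours in this order did not overlap in any library, the closest being Gas5 and Neat1. These lengths, 2288, 6982, 474, 2549 and 20763 bases in that order, set the ranks: Neat1 lies above Gas5 and Snhg1 in CPM, and below both per kilobase. Gas5 also lies above Snhg1 in CPM, at 25.1 against 12.6 under vehicle, and below it per kilobase. The exons of all GENCODE M21 transcripts cover 3760 bases in Gas5 and 2969 in Snhg1. The order of these hosts per kilobase therefore rests on the deposited lengths.

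The genes most alike each RNA were taken by Pearson's r of log2 CPM over the 6 libraries, among 8811 others with a mean of at least 10 CPM, leaving out predicted genes and clone names. Such values are the highest among many genes over few libraries and are given as a description. Nearest to H19 were Hspb8, a small heat shock protein (r = 0.993), and the transcription factor Tbx1 (0.989). Near to Malat1 was Atrx, a chromatin remodeller (0.988). Nearest to Neat1 were Itga4, the integrin chain that binds VCAM1 (0.984), and Brip1os (0.981).

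For Gas5 the nearest were Klhl7, a ubiquitin ligase adaptor (r = 0.998), and Vcam1, the adhesion molecule (0.995). Klhl7 went from 47.2 to 51.4 CPM in the group means (log2 fold change 0.12, adjusted p = 0.0400 by edgeR) and Vcam1 from 52.0 to 136 (1.39, adjusted p = 3.91e-09). For Snhg1 they were Park7, which encodes DJ-1 (0.994), and the nucleolar Nol7 (0.985). Of the genes named here as most alike, those other than Klhl7 and Vcam1 did not pass the test.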

How the data were processed

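Counts of RNA sequencing reads per gene were analysed for 6 libraries (paired-end reads of 75 bases, per the labels' protocols). The submitters' processing notes name mm10 as the build and list STAR, FastQC and edgeR, with neither version nor role. How reads were assigned to genes, by strand or not, and with which annotation was not given in the sources used here. Raw counts that the authors deposited cover 12625 gene symbols, in each of which the third-highest library had at least 0.504 CPM, and 4708 lines without gene or value were left out. The authors also deposited log2 values, which from their relation to the counts are log2 of CPM per kilobase with TMM scaling, and the gene lengths used here were taken from that relation.

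Groups came from the labels. edgeR 4.0.16 (R 4.3.3) was run over all genes with TMM, filterByExpr (0 genes removed), the quasi-likelihood test and Benjamini-Hochberg adjustment, at a threshold of 0.05, and the SE is the log2 fold change divided by the square root of F. DESeq2 1.42.0, limma 3.58.1, other scalings and filters, trends on length and GC content, a replicate block and leaving out each library were the alternatives. The steps were tested on simulated data. Positions come from GENCODE M21. The members, the lists and the rule for named genes (all members, their coding neighbours in the imprinted domains, up to 4 called genes per list or the smallest p, and the 2 most alike genes) were chosen with earlier results of these data known. Some results are not reported here. Precision is limited by 3 libraries per group.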

Additional observations from a re-analysis of the deposited data

How the results depend on the processing

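The rise of Gas5 kept its direction and its call in 17 of 17 alternatives. The alternative without a filter is the main fit again, because the filter removed 0 genes, so its agreement was fixed in advance in every count of alternatives given here. H19, Malat1, Neat1 and Snhg1 passed the threshold in none of the 17. The log2 fold change of H19 was 0.017 with total count scaling, 0.016 with the GC trend removed and 0.000115 without RANKL replicate 3. Leaving out one library gave H19 values of -0.028 to 0.000115 and Malat1 values of -0.031 to 0.11. With the GC trend removed Malat1 stood at -0.020. Total count scaling gave 1070 higher and 626 lower genes over the whole table, against 676 and 947, and leaving out one library gave 373 to 746 higher and 537 to 880 lower. Among 13 other named genes, 196 of 221 results kept direction and call, 22 lost the call, 3 gained it and 0 turned. The causes were not tested.

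Replicate numbers are shared between the groups, and each RANKL library correlated best with the vehicle library of the same number (0.115, 0.0572 and 0.0249). These correlations were weak, and vehicle replicate 3 correlated better with RANKL replicate 2 (0.0430). The numbers were not taken to pair the samples in the main fit, and the replicate block was run as an alternative. With the replicate block, 730 genes were higher and 1008 lower. Gas5 stood at 0.31, H19 at -0.01, Malat1 at 0.03, Neat1 at 0.12 (adjusted p = 0.0732 by edgeR) and Snhg1 at 0.09, with no call changed among them. The SE of Neat1 was 0.041 with the block and 0.073 without it. Snhg1, with 423 to 520 counts per library, has the least depth of the 5 members.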

Other observations

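Long noncoding RNA genes beyond the members were mostly low. RefSeq classes 328 other analysed genes as lncRNA, with a median of 1.60 CPM under vehicle. Only genes whose symbol is the same in RefSeq were counted. The named lncRNAs 2900097C17Rik and 1700020I14Rik, at 134 and 61.5 CPM under vehicle, are not among them. edgeR called 5 of the 328 higher and 2 lower, 2.13%, against 12.9% of all genes. A change is harder to call at such low counts, so these shares do not compare the strength of response. The median log2 fold change of the 328 was 0.03, against 0.00 for all genes. Without vehicle replicate 1 or 2 only 2 were higher, without vehicle replicate 3 or RANKL replicate 2 there were 3, and with the GC trend removed 3. Without RANKL replicate 3, with the replicate block or with the length trend removed there were 6, and without RANKL replicate 1 or with total count scaling 7.

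Dnm3os, the antisense transcript in Dnm3 that carries miR-199a and miR-214, lay between 13.2 and 14.1 CPM in the vehicle libraries and between 18.1 and 21.0 under RANKL. Its log2 fold change was 0.50 ± 0.07 (adjusted p = 0.000257 by edgeR), and it was called in all 17 alternatives. Besides Snhg5, the others that rose were Gm8883 (0.53 ± 0.12), Srrm4os (0.30 ± 0.09) and B230354K17Rik (0.15 ± 0.05). Those that fell were 4930447F24Rik (-0.54 ± 0.11) and 9630028I04Rik (-0.34 ± 0.10). These genes, apart from Dnm3os and Snhg5, were chosen after their values were seen.

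From a list of 60 other named lncRNAs, 29 were analysed, of which edgeR called 1 higher (Dnm3os) and 0 lower, with a median log2 fold change of 0.01. Other abundant lncRNAs did not pass the test. Xist, the RNA of the inactive X chromosome, stood at 1014 ± 150 CPM under vehicle and 957 ± 63.6 under RANKL (SD, n = 3 each), and Tug1 at 97.5 ± 3.06 and 98.5 ± 2.25. Linc-md1, a muscle RNA known to bind miR-133 and miR-135, had 25.0, 21.4 and 24.8 CPM under vehicle and 24.1, 23.4 and 26.4 under RANKL, so the groups overlapped (log2 fold change 0.05 ± 0.07, adjusted p = 0.696). Xist, Tug1 and Linc-md1 were chosen after their values were seen.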
